A study of Mus musculus with 18 samples.

Results

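The cytosolic ribosomal protein genes of the mouse kidney were taken as every gene of the deposited table whose symbol is Rpl or Rps followed by a number, together with Rpsa, Rplp0, Rplp1 and Rplp2. This name rule found 87 of the 32675 genes in the table, 35 named for the small (40S) subunit and 52 for the large (60S) subunit. Of these, 82 are annotated as protein coding and 5 as pseudogenes (Rps3a2, Rps3a3, Rps4l, Rpl6l and Rpl32l). RNA sequencing was done on the right kidneys of male C57BL/6 mice of wild type genotype, with 6 mice in each of 3 groups. Per the methods, the mice were 6 weeks old when obtained, and acclimatization and the defeat period came before the kidneys were taken. Ctrl mice were not defeated and, per the methods, were handled daily, with no injection stated. PBS mice were defeated by an aggressive CD-1 male for 10 min a day over 14 days (chronic social defeat stress, CSDS) and received phosphate-buffered saline by intraperitoneal injection. FLX mice went through the same defeats and received fluoxetine, a selective serotonin reuptake inhibitor, at 10 mg per kg per day. Defeat and injection therefore cannot be told apart in either comparison with Ctrl, and no undefeated mice received fluoxetine. The kidney is a mixture of cell types, so fewer cells of a type and less RNA per cell cannot be told apart.

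Ribosomal proteins coat and fold the ribosomal RNA of the 40S subunit, which decodes the mRNA, and the 60S subunit, which forms the peptide bond. Their mRNAs are short, abundant and present in every cell, since each ribosome carries one copy of most of these proteins, and cells usually adjust them together. Many of them begin with a run of pyrimidines directly at the cap (a 5′ terminal oligopyrimidine tract, TOP), through which the growth-sensing kinase mTORC1 and the RNA-binding protein LARP1 control their translation and stability. They are found in every cell type of the kidney and are often used as reference genes there.

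The annotated start regions of 7 of these genes are printed to show the runs of pyrimidines near them. RefSeq start sites (GRCm38.p6) were matched by symbol for 62 of the 86 genes tested, using the first listed start of each gene. The windows run from 40 bases before to 20 bases from the annotated start on, 5′ to 3′ on the gene's own strand, and capitals mark the longest unbroken run of C and T within 20 bases of the start. Rpl22, Rps23, Rpl37 and Rpl5 are shown because they had the lowest p-values between FLX and Ctrl, Rps27 and Rpl7a because they had the most negative PBS versus Ctrl estimates among the protein-coding genes, and Rps6 as the target of S6 kinase.
Rpl22 (GRCm38, chr4:152325686-152325745, forward strand): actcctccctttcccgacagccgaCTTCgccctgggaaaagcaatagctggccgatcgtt
Rps23 (GRCm38, chr13:90923082-90923141, forward strand): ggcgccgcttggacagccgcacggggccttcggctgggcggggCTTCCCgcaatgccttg
Rpl37 (GRCm38, chr15:5116573-5116632, forward strand): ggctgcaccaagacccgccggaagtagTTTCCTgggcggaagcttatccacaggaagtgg
Rpl5 (GRCm38, chr5:107900488-107900547, forward strand): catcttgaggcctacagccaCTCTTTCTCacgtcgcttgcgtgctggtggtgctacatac
Rps27 (GRCm38, chr3:90213629-90213688, reverse strand): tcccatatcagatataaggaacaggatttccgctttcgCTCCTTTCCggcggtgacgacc
Rpl7a (GRCm38, chr2:26910767-26910826, forward strand): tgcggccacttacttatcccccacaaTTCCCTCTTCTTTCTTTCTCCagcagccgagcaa
Rps6 (GRCm38, chr4:86857348-86857407, reverse strand): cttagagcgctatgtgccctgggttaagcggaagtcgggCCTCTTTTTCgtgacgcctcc
The run was 21 bases in Rpl7a, 10 in Rps6, 9 in Rpl5 and Rps27, 6 in Rps23 and Rpl37 and 4 in Rpl22. Those of Rpl7a, Rps27 and Rps6 spanned the annotated start, those of Rpl22, Rpl37 and Rpl5 ended before it and that of Rps23 began after it, so a tract at the cap cannot be read from the last 4 as annotated. A run of 8 or more bases lay within 20 bases of the start in 46.8% of the 62 ribosomal protein start regions and in 15.9% of the 27025 genes with a listed start. The letters CCGGAAG, the core of the site bound by ETS-family factors, occurred on either strand within 300 bases (250 before and 50 after the start) in 38.7% against 9.12%. These are letter matches and were not tested for binding.

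Each library held 48928823 to 79061296 counts summed over genes, with FLX replicates 3 to 6 at 48928823 to 52073640 and the other 14 libraries at 72149987 or more. The study left out 1 unnamed PBS mouse for its inflammatory gene expression. PBS replicate 6 had a summed level of 69.0 FPKM for S100a8, S100a9, Ccr1, Sphk1 and Cxcl1, against 8.85 to 37.2 in the other PBS mice, and was taken as that mouse. Of these genes, which the study picked on these samples, S100a8, S100a9 and Sphk1 rose in the other 5 PBS mice against Ctrl, and S100a8 and Sphk1 fell in FLX versus PBS (edgeR, adjusted p under 0.05). The 17 other mice entered the comparisons, and values with all 18 are given where they differ. The summed level of the 18 markers of kidney epithelium was 2707 to 3159.8 FPKM in Ctrl, 2582 to 3312 in PBS and 2739.5 to 3251 in FLX, and of these Calb1 and Scnn1g rose in PBS and Scnn1g in FLX against Ctrl (edgeR, adjusted p under 0.05). That of the 12 fat markers (brown fat genes such as Ucp1 together with general or white fat genes such as Adipoq and Lep) was 38.6 to 310.1 FPKM in Ctrl, 88.7 to 1872 in PBS and 68.4 to 1629.9 in FLX, with Elovl3 rising in PBS and all 12 estimates positive in PBS and in FLX against Ctrl. That of the 7 erythroid markers was 47.2 to 780.1 FPKM in Ctrl, 149 to 2136 in PBS and 39.0 to 301 in FLX, with no call. That of the 17 lymphocyte markers was 13.8 to 47.2 FPKM in Ctrl, 27.2 to 38.1 in PBS and 34.6 to 77.5 in FLX, with no call. That of the 15 myeloid markers was 71.0 to 92.1 FPKM in Ctrl, 84.1 to 118 in PBS and 55.2 to 172 in FLX, with S100a8 and S100a9 rising in PBS, S100a8 falling in FLX versus PBS and Adgre1 rising in FLX versus Ctrl. Whichever 1 mouse was left out, the calls of Calb1 and Sphk1 in PBS passed, and each other call named here was lost when any 1 of 3 to 11 mice was left out. No gene of these lists was at 0 in every library. Ctrl replicate 3, which had the lowest ribosomal protein levels, was inside the range of the other Ctrl mice for the fat and myeloid sums (43.2 and 72.3 FPKM), lowest for the erythroid sum (47.2) and highest for the kidney epithelium sum (3159.8). The part of these cell types in the ribosomal protein values was not tested.

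The ribosomal protein genes were among the abundant mRNAs of the kidney. Their median level over the 18 mice was 117 FPKM (fragments per kilobase of exon, scaled to the mapped total), against 1.80 FPKM over all 20251 genes tested, and 53 of the 87 averaged over 100 FPKM. The highest means were those of Rplp1 (769 FPKM), which with Rplp0 and Rplp2 forms the stalk that recruits elongation factors, Rps15 (598), Rpl41 (488), Rpl19 (455) and Rplp0 (399.8). At the other end were Rpl39l (0.0245 FPKM), a paralog known from testis, Rps3a3 (1.496), Rpl32l (1.69), Rpl3l (1.72), a paralog known from heart and skeletal muscle, and Rps3a2 (3.38). Rpl39l was the 1 gene that did not pass the filter on low counts, and 86 were tested. The deposited FPKM divide by a length proportional, to within 2%, to the union of all annotated exons for 86 of the 87 genes, and this union was 2.27 times the annotated mRNA length at the median and 11.9 times at most. Rescaled to mRNA length, the 82 protein-coding genes were led by Rpl41 (1083 rescaled FPKM), Rps14 (905) and Rplp1 (769), and Rps24 moved from place 67 by deposited FPKM to place 6 (691). The order among these genes therefore depends on the length used, while comparisons of one gene between mice do not.

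Summed over the 87 genes, the ribosomal protein level was lower on average in both defeated groups than in Ctrl, and 1 Ctrl mouse was lower than every defeated mouse. The sum was 16276, 16837, 14699, 14049.8 and 14927 FPKM in Ctrl replicates 1, 2, 4, 5 and 6, and 8712 FPKM in Ctrl replicate 3. It was 12599.6, 14302, 14049, 10488 and 11638 FPKM in PBS replicates 1 to 5, and 9989.8 to 13297 FPKM in FLX (median 12682), where FLX replicate 6 was the lowest. PBS replicate 6, left out of the comparisons, had 14549 FPKM. The 3 groups overlapped. Without Ctrl replicate 3, all 6 FLX mice were below all 5 remaining Ctrl mice, while PBS replicate 2 was above Ctrl replicate 5. As a share of all FPKM of the library, these genes took 3.26% ± 0.627 in Ctrl (SD, n = 6), 2.95% ± 0.373 in PBS (n = 5) and 2.96% ± 0.304 in FLX (n = 6), and the Ctrl share was 3.50% ± 0.214 (n = 5) without Ctrl replicate 3. As a share of all counts they took 1.65 to 3.19% in Ctrl, 1.97 to 2.67% in PBS and 1.88 to 2.50% in FLX. Being a choice of members made with earlier results known, the sum was given no test.

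**Figure D1:**
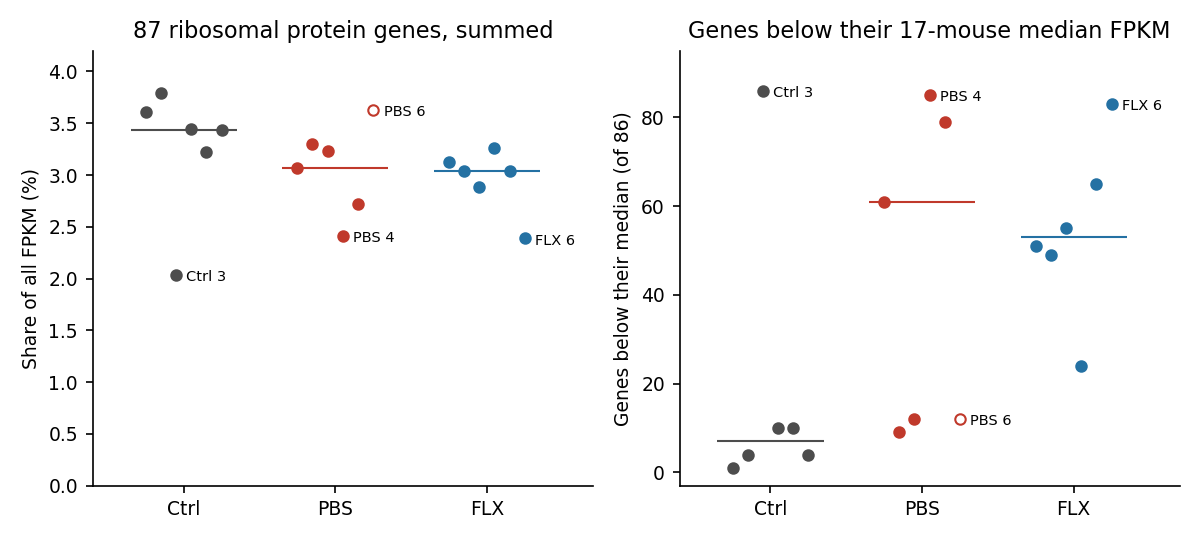
Left, the 87 ribosomal protein genes as a share of all FPKM of each mouse (y axis, %). Right, the number of the 86 tested genes that lay below their own median over the 17 mice compared (y axis). Each point is 1 mouse, horizontal lines are medians of the mice compared, and the open point is PBS replicate 6, which was not compared. Ctrl replicate 3 sits at 2.04% against 3.23 to 3.79% in the other Ctrl mice, and all 86 genes were below their median in it.

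The genes moved together from mouse to mouse, within as well as between groups. Of the 86 tested genes, 1, 4, 10, 10 and 4 were below their own 17-mouse median in Ctrl replicates 1, 2, 4, 5 and 6, and 86 in Ctrl replicate 3. In PBS replicates 1 to 5 the numbers were 61, 9, 12, 85 and 79. In FLX replicates 1 to 6 they were 51, 49, 55, 24, 65 and 83. All Ctrl mice, PBS replicates 2 to 5 and FLX replicate 6 therefore had nearly all of these genes on one side. PBS replicate 1 and FLX replicates 1 to 5 were more mixed. The PBS group was split, with 2 mice at 9 and 12 genes and 3 at 61 to 85. Ctrl replicate 3 held the lowest value of the 17 mice for 75 genes, and was the lowest Ctrl mouse for 85 of 86, the exception being the pseudogene Rps3a2. Its level was 0.614 times the mean of the other Ctrl mice at the median gene, from 0.274 times for Rpl17 to 0.921 times for Rps4x. Nothing in the labels sets this mouse apart, and its total count of 77860012 was inside the Ctrl range. PBS replicate 6 had 12 genes below the median.

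**Figure D2:**
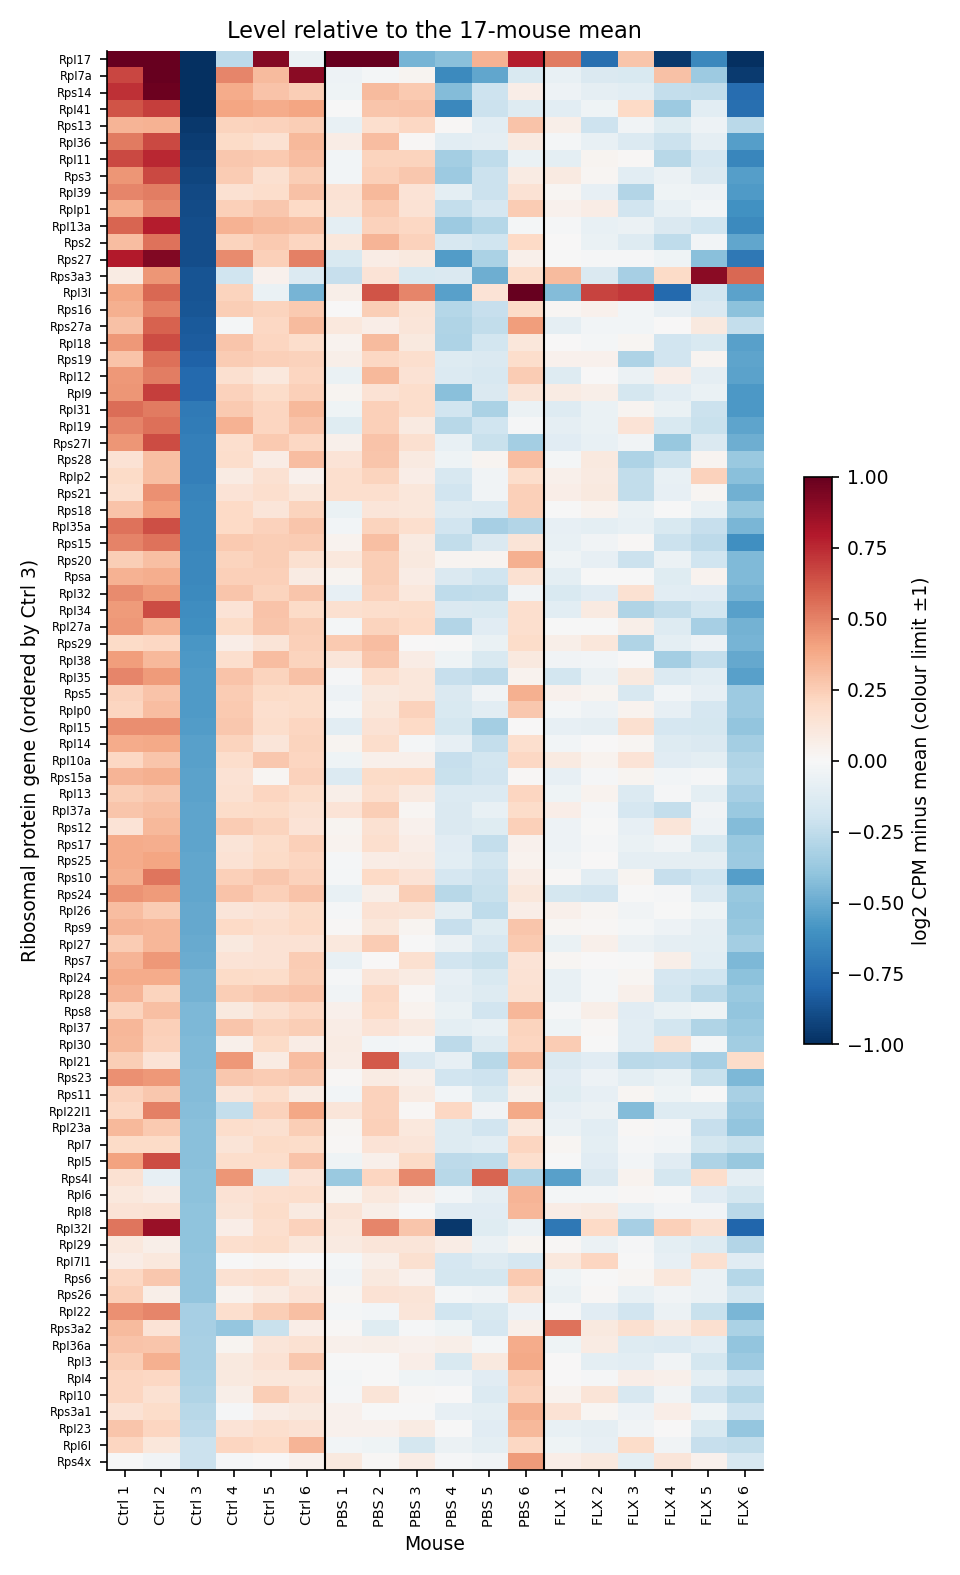
Level of 85 of the 86 tested ribosomal protein genes (rows, ordered by Ctrl replicate 3) in each mouse (columns), as log2 CPM (counts scaled to the library total) minus the mean over the 17 mice compared, with colours cut at 1 either way. Ctrl replicate 3 is low in every row but least in Rps4x, FLX replicate 6 is low in most, and Rpl17, Rpl3l and Rps3a3 vary apart from the rest.

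A few genes did not follow the others. Rpl17, a protein at the exit of the peptide tunnel, had the largest spread within groups, an SD of 0.796 on the log2 scale against a median of 0.230 over the tested genes, followed by Rpl7a (0.557) and Rpl3l (0.507). Rpl17 measured 27.7 to 138 FPKM in the Ctrl mice (median 91.3), 133, 139.8, 49.4, 46.6 and 86.7 in PBS replicates 1 to 5, and 26.9 to 97.6 in the FLX mice (median 42.7). It was at 82.0 FPKM or more in Ctrl replicates 1, 2 and 5, PBS replicates 1, 2 and 5 and FLX replicates 1 and 3, and at 63.3 or less in the other mice compared, so each group held both. Its FLX versus PBS change of -0.81 ± 0.47 (SE) on the log2 scale did not pass the test (edgeR adjusted p = 0.595). Rps4x measured 152 to 173 FPKM in the Ctrl mice (median 163), 175, 167, 181, 156 and 167 in PBS replicates 1 to 5, and 159 to 205 in the FLX mice (median 181). Rps4x, an X-linked gene of the 40S subunit, was the steadiest, with an SD of 0.0979, and its groups overlapped with FLX on the higher side (log2 change 0.050 ± 0.069 against Ctrl, edgeR adjusted p = 0.734).

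The comparison of PBS with Ctrl asks how defeat with saline injection changed the kidney. With all 6 Ctrl mice, no ribosomal protein gene passed the test (adjusted p under 0.05, edgeR's quasi-likelihood test with Benjamini-Hochberg adjustment over all genes), where 3.79% of all 20251 genes tested did. At an unadjusted p under 0.05 there were 6 of 86, against 17.7% of all genes, and DESeq2 also called none, against 7.03% of all genes. The estimates leaned lower for 76 of 86 genes, with a median log2 fold change of -0.14, against -0.0078 over all genes. No gene separated the groups, where 3.52% of all genes did.

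The lowest p-values between PBS and Ctrl were those of Rpl7a, Rpl6l, Rps27, Rpl22 and Rps23. Rpl7a measured 53.7 to 269.9 FPKM in the Ctrl mice (median 164), 104, 107, 115, 66.5 and 78.8 in PBS replicates 1 to 5, and 61.1 to 152 in the FLX mice (median 101). All PBS values of Rpl7a, a 60S protein, lay below the 5 higher Ctrl mice and above Ctrl replicate 3, a log2 change of -0.82 ± 0.31 (SE, edgeR adjusted p = 0.175, exact permutation p = 0.11). Rps27 measured 113 to 367 FPKM in the Ctrl mice (median 279.6), 174, 207, 219, 127 and 164 in PBS replicates 1 to 5, and 130.3 to 218 in the FLX mice (median 202). Rps27, a zinc-finger protein of the 40S subunit, showed the same order of mice, with a log2 change of -0.59 ± 0.24 (edgeR adjusted p = 0.189, exact permutation p = 0.132). Rps23 measured 172 to 300.1 FPKM in the Ctrl mice (median 268), 218, 232, 236, 182 and 197 in PBS replicates 1 to 5, and 175 to 238 in the FLX mice (median 211). Rps23, which lies at the decoding centre, had a log2 change of -0.28 ± 0.13 (edgeR adjusted p = 0.247). The Rpl6l pseudogene gave -0.23 ± 0.094 (edgeR adjusted p = 0.186).

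Leaving out Ctrl replicate 3 changed this comparison. Without it, 22 of 86 ribosomal protein genes fell and none rose in PBS against the 5 other Ctrl mice (edgeR, adjusted p under 0.05), where 3.9% of all 20093 genes fell, and the median log2 change was -0.24 (all genes 0.011). In FPKM, 18 genes were lower in every PBS mouse than in every one of these Ctrl mice, against 3.47% of all genes. The largest falls that passed the test were in Rpl7a (-0.9997 ± 0.23, edgeR adjusted p = 0.0152), Rps27 (-0.76 ± 0.16, adjusted p = 0.0103) and Rpl13a (-0.52 ± 0.14, adjusted p = 0.0247). Others that fell included Rpl22, Rps23, Rps24, Rpl19, Rpl5 and Rpl11. The label of Ctrl replicate 3 gives no ground to leave it out, and the choice to look at the 5-mouse group by itself followed from its values.

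The comparison of FLX with PBS asks what fluoxetine changed in defeated mice. No ribosomal protein gene passed the test, where 0.711% of all genes did (edgeR), and 2 of 86 had an unadjusted p under 0.05, against 11.1% of all genes. DESeq2 called none, against 2.46% of all genes. The estimates were lower in FLX for 76 genes, with a median log2 change of -0.12, against -0.0027 over all genes. Scaled by library totals in place of TMM, all genes moved up by a median of 0.083 and the ribosomal protein genes stood at -0.033, so the distance between them was the same while the count of lower estimates fell to 60. No gene separated the groups, where 2.92% of all genes did.

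Rpl22l1, Rps20, Rps3a3 and Rpl29 were among the genes of lowest p between FLX and PBS. Rpl22l1 measured 13.98 to 24.6 FPKM in the Ctrl mice (median 20.2), 18.9, 20.7, 18.5, 19.4 and 17.9 in PBS replicates 1 to 5, and 13.5 to 18.3 in the FLX mice (median 17.4). Rpl22l1, the paralog that can take the place of Rpl22 in the 60S subunit, had a log2 change of -0.30 ± 0.13 (edgeR adjusted p = 0.394, exact permutation p = 0.013). Rps20 measured 23.2 to 41.2 FPKM in the Ctrl mice (median 39.8), 36.2, 40.4, 37.9, 33.1 and 36.2 in PBS replicates 1 to 5, and 27.4 to 37.3 in the FLX mice (median 32.7). For Rps20, of the 40S head, the FLX mice were lower than PBS with overlap, a log2 change of -0.27 ± 0.13 (edgeR adjusted p = 0.442, exact permutation p = 0.0541). Rpl29 of the 60S subunit gave -0.16 ± 0.091 (edgeR adjusted p = 0.553). The pseudogene Rps3a3 leaned the other way, at 0.48 ± 0.26 (edgeR adjusted p = 0.533), with 1.24 ± 0.188 FPKM (SD, n = 5) in PBS and 1.86 ± 0.640 FPKM (SD, n = 6) in FLX. Without Ctrl replicate 3 no ribosomal protein gene passed in this comparison either, against 1.25% of all genes, with Rps20 nearest (edgeR adjusted p = 0.0712).

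The comparison of FLX with Ctrl spans defeat, injection and fluoxetine together and shares its mice with the other comparisons. Of the 86 ribosomal protein genes, 1 fell in FLX and none rose (edgeR, adjusted p under 0.05), where 3.79% of all genes passed and 1.66% fell. That gene was Rpl22, a 60S protein that also binds mRNA. Rpl22 measured 40.6 to 65.9 FPKM in the Ctrl mice (median 57.4), 46.6, 46.9, 54.3, 39.8 and 44.9 in PBS replicates 1 to 5, and 38.1 to 52.4 in the FLX mice (median 45.1). The FLX mice overlapped Ctrl only through Ctrl replicate 3, and the log2 change was -0.41 ± 0.11 (edgeR adjusted p = 0.0463, exact two-sided permutation p = 0.0368 on log2(FPKM + 0.1), unadjusted). With the sixth PBS mouse in the fit, which shares its spread estimate, Rpl22 had an adjusted p of 0.0637 (edgeR) and no ribosomal protein gene was called, against 1.81% of all genes. The call was also lost when any of 15 mice was left out, all but Ctrl replicate 3 and PBS replicate 5, with edgeR adjusted p from 0.0502 to 0.121. DESeq2 found 8 that fell, where 3.55% of all genes did, among them Rpl22, Rps23, Rps27, Rpl5, Rpl7a, Rps14 and Rpl37. The edgeR estimates were lower for 82 of 86 genes, all but Rps4x, Rpl7l1, Rps3a2 and Rps3a3, with a median of -0.27 against -0.0092 over all genes, and 37 had an unadjusted p under 0.05, against 20.3% of all genes. No gene separated the groups, where 3.4% of all genes did.

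Rps23, Rpl37 and Rpl5 followed Rpl22 by p-value. Rps23 had a log2 change of -0.40 ± 0.12 (edgeR adjusted p = 0.0694), Rpl37 -0.32 ± 0.11 (adjusted p = 0.0994) and Rpl5 -0.40 ± 0.13 (adjusted p = 0.101). Rpl37 measured 54.9 to 88.4 FPKM in the Ctrl mice (median 82.9), 72.9, 77.3, 77.7, 62.4 and 69.5 in PBS replicates 1 to 5, and 59.3 to 73.1 in the FLX mice (median 69.0). For Rpl37, the 5 higher Ctrl mice were above every FLX mouse and Ctrl replicate 3 was below every FLX mouse.

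Without Ctrl replicate 3, 68 of 86 ribosomal protein genes fell in FLX and none rose (edgeR, adjusted p under 0.05), against 7.76% of all genes that fell, with a median log2 change of -0.36 (all genes 0.012). They comprised 26 of 35 40S genes (median -0.33) and 42 of 51 60S genes (median -0.41). Among the lowest p were those of Rps23 (-0.49 ± 0.082, edgeR adjusted p = 0.00147), Rpl22 (-0.50 ± 0.084, adjusted p = 0.00174), Rpl37 (-0.41 ± 0.072, adjusted p = 0.00198) and Rps20 (-0.40 ± 0.071, adjusted p = 0.00223). In FPKM, 36 genes were lower in all 6 FLX mice than in the 5 Ctrl mice, against 3.24% of all genes. The 18 that did not pass included Rps6, Rps4x, Rps3a1, Rpl4, Rpl8, Rplp2 and Rpl17. All 22 genes that fell in PBS in the same fit were among the 68, and both comparisons use the same 5 Ctrl mice. Ctrl replicate 3 was left out for its low values of these same genes, which by itself favours falls against Ctrl. The counts without it are therefore a description and give no independent support for a fall.

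**Figure D3:**
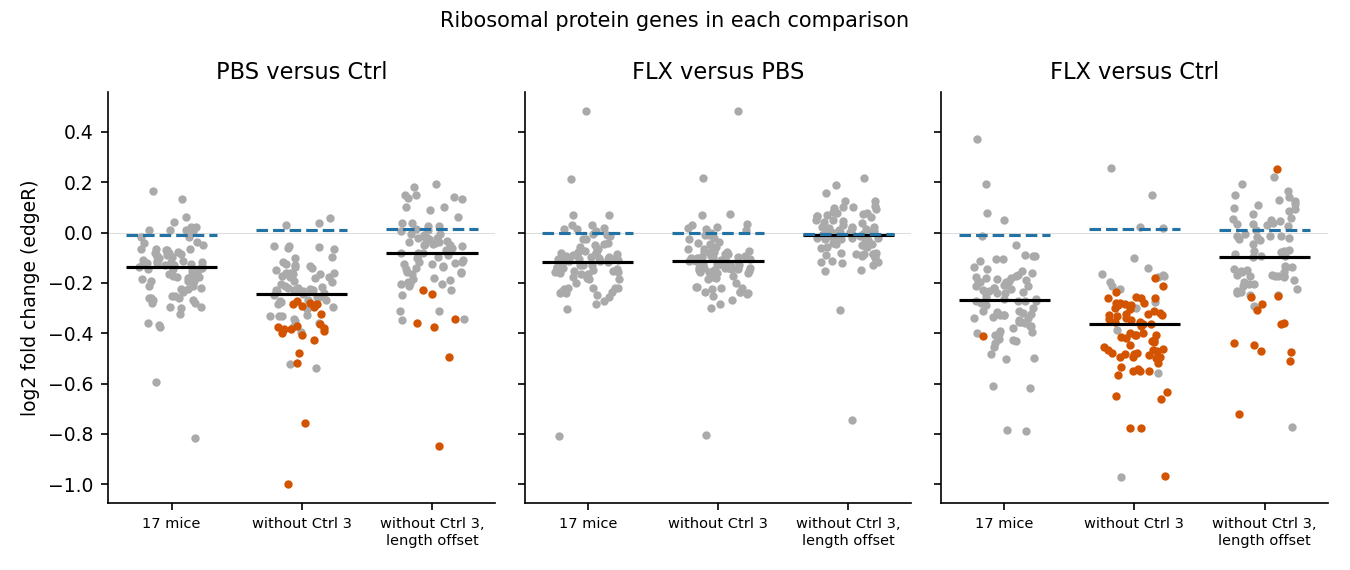
edgeR log2 fold changes (y axis) of the tested ribosomal protein genes in each comparison, with the 17 mice, without Ctrl replicate 3, and without Ctrl replicate 3 with each mouse's counts adjusted for transcript length. Each point is 1 gene, orange where the adjusted p was under 0.05, black lines are medians of these genes and blue dashed lines medians of all genes tested. FLX versus Ctrl goes from 1 to 68 genes called without Ctrl replicate 3 and to 13 with the length adjustment, and FLX versus PBS stays at 0.

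Transcript length moved with these values. Ribosomal protein mRNAs are short, with a median length of 772 bases over the 82 with a GENCODE M21 coding transcript, against 2639 for the other genes tested. In Ctrl replicate 3, the 589 other genes of 600 to under 1000 bases with at least 10 CPM lay -0.42 from their 17-mouse mean on the log2 scale at the median, and the 2404 genes of 4000 bases and over lay at 0.27, where the ribosomal protein genes lay at -0.54. In Ctrl replicate 2, the highest mouse, the same medians were 0.29, -0.16 and 0.37, and in FLX replicate 6 they were -0.29, 0.15 and -0.39. Short genes of other kinds thus moved the same way as the ribosomal protein genes in these mice. PBS replicate 6 differed, with short genes at -0.13 and ribosomal protein genes at 0.17.

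The same gradient was present between the groups. In FLX versus Ctrl with 17 mice, the median log2 change of other genes was -0.29 under 600 bases, -0.22 at 600 to under 1000 and 0.10 at 4000 and over, and that of ribosomal protein genes was -0.27 and -0.32 in the 2 shortest classes. Without Ctrl replicate 3, 68.9% of the 119 other genes under 600 bases and 50.4% of the 589 at 600 to under 1000 bases fell, beside 19 of 23 and 34 of 39 ribosomal protein genes of those lengths. Among genes of 1000 to under 1500 bases the shares were 31.5% of 961 other genes and 9 of 12 ribosomal protein genes, with medians of -0.19 and -0.35. When each mouse's counts were adjusted for its own length trend, fitted on the other genes, the median of the 81 ribosomal protein genes with a length was -0.036 for PBS versus Ctrl, -0.0079 for FLX versus PBS and -0.066 for FLX versus Ctrl, with Rps27 (-0.42 ± 0.12, edgeR adjusted p = 0.0416) falling in the first (where 2.54% of all genes did), none called in the second (where 1.24% of all genes were) and Rpl22 (-0.39 ± 0.10, adjusted p = 0.033) falling in the third (2.29%).

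With the length adjustment and without Ctrl replicate 3, 7 genes fell in PBS against Ctrl (Rps27, Rpl22, Rpl7a, Rps23, Rpl13a, Rpl5 and Rpl19), where 3.67% of all genes fell (edgeR), and 12 fell and 1 rose in FLX against Ctrl, where 5.24% of all genes fell and 4.69% rose. The 12 that fell in FLX were Rps20, Rpl22, Rpl5, Rps23, Rpl13a, Rps15a, Rps14, Rpl11, Rpl7a, Rpl35, Rpsa and Rps27, and the one that rose was Rps4x (0.25 ± 0.065, edgeR adjusted p = 0.0217). Of the 12, Rps15a (5130 bases), Rps20 (3706), Rpl22 (2048), Rpl5 (2045) and Rpsa (1768.5) had assigned lengths well above the ribosomal protein median. The adjustment therefore did not treat them as short genes. It made the estimates of Rps20 and Rps15a more negative, from -0.40 to -0.51 and from -0.28 to -0.44. Whether these lengths match the transcripts present in the kidney was not tested. Rpl22, Rps23, Rps27, Rpl5, Rpl7a and Rpl13a fell in both comparisons with the 5 Ctrl mice whether or not length was adjusted. For Rpl22 and Rpl5 this is no check on length, since the trend was small at their assigned lengths. Other genes of 1500 to under 2500 bases had medians of -0.013 in PBS and -0.037 in FLX against these Ctrl mice, before adjustment. Rps23, Rps27, Rpl7a and Rpl13a, at 937, 345, 914 and 771 bases, were adjusted as short genes. What lies behind the length trend was not tested.

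**Figure D4:**
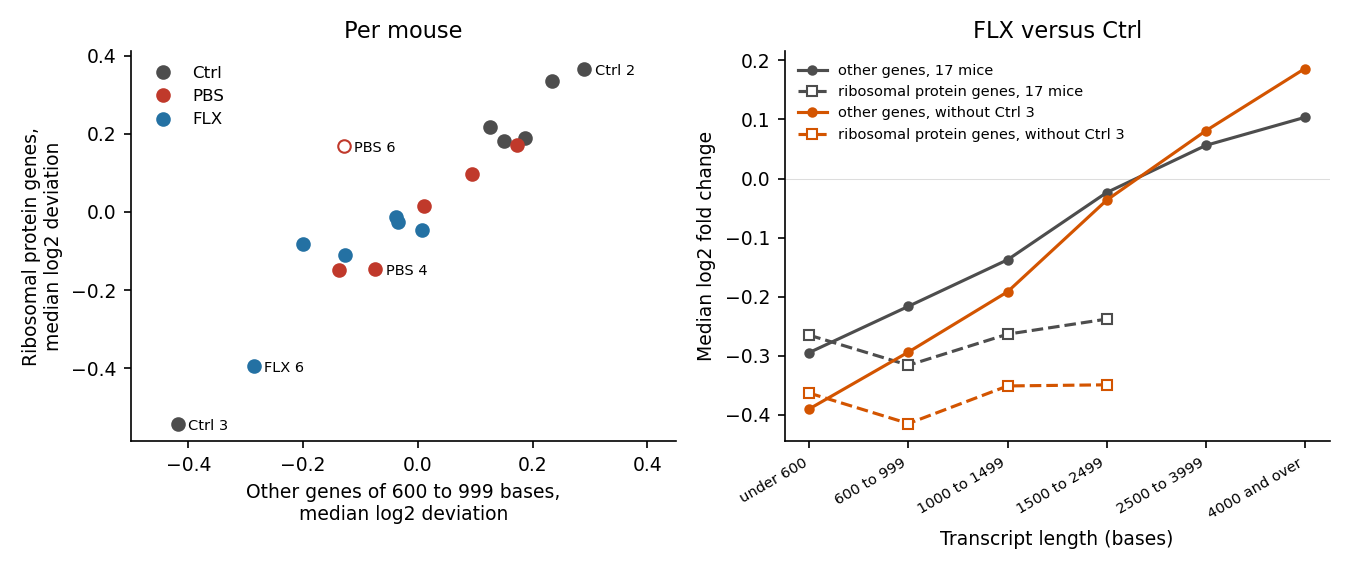
Left, each mouse's median log2 deviation from the 17-mouse mean for the ribosomal protein genes (y axis) against that for the 589 other genes of 600 to under 1000 bases (x axis), with PBS replicate 6 as an open point. Right, median log2 fold change of FLX versus Ctrl (y axis) by transcript length class (x axis) for other genes and, in classes with 5 or more, ribosomal protein genes, with and without Ctrl replicate 3. Ctrl replicate 3 lies lowest on both axes of the left plot at -0.42 and -0.54, and the lines for other genes climb from -0.29 in the shortest class to 0.10 in the longest with 17 mice.

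None of the genes picked for a known role outside the ribosome or at its working sites passed the test with 17 mice. Rpl5 and Rpl11 form with 5S RNA the particle that binds Mdm2 and stabilizes p53 when ribosome assembly is disturbed. Rpl5 averaged 137 ± 28.6 FPKM in Ctrl (SD, n = 6), 112 ± 17.6 in PBS (n = 5) and 111 ± 10.2 in FLX (n = 6). Rpl11 averaged 174 ± 54.6 FPKM in Ctrl (SD, n = 6), 139.7 ± 27.3 in PBS (n = 5) and 133 ± 18.5 in FLX (n = 6). Both were lower in FLX than in Ctrl without passing the test with 17 mice (edgeR adjusted p = 0.101 and 0.192), and both fell without Ctrl replicate 3 (-0.50 ± 0.10 and -0.63 ± 0.13, edgeR adjusted p = 0.00502 and 0.00532). Rps6, the 40S protein phosphorylated by S6 kinase, had overlapping groups. Rps6 averaged 243 ± 30.6 FPKM in Ctrl (SD, n = 6), 220.1 ± 22.5 in PBS (n = 5) and 236 ± 24.6 in FLX (n = 6). It did not pass in FLX versus Ctrl in either fit (edgeR adjusted p = 0.477 with and 0.0646 without Ctrl replicate 3).

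The 3 stalk proteins were abundant to differing degrees. Rplp0 averaged 416 ± 71.7 FPKM in Ctrl (SD, n = 6), 389 ± 52.7 in PBS (n = 5) and 379 ± 31.4 in FLX (n = 6). Rplp1 averaged 817 ± 204 FPKM in Ctrl (SD, n = 6), 748 ± 118 in PBS (n = 5) and 717 ± 109.7 in FLX (n = 6). Rplp2 averaged 69.2 ± 12.8 FPKM in Ctrl (SD, n = 6), 69.9 ± 8.02 in PBS (n = 5) and 69.3 ± 11.2 in FLX (n = 6). Against the 5 other Ctrl mice, Rplp0 and Rplp1 fell in FLX (-0.33 ± 0.082 and -0.42 ± 0.11, edgeR adjusted p = 0.0124 and 0.0181) while Rplp2 gave -0.20 ± 0.10 (adjusted p = 0.211), and whether Rplp2 differed from its partners was not tested. Rpl13a, often used as a reference gene, ranged from 135 to 395 FPKM within Ctrl alone, and its group means were 293 ± 88.2, 228 ± 47.4 and 221 ± 29.0 in Ctrl, PBS and FLX. Rpsa, which also serves as a laminin receptor, Rps27a, made as a fusion with ubiquitin, and Rps19, mutated in Diamond-Blackfan anaemia, had log2 changes in FLX versus Ctrl of -0.24 ± 0.14, -0.20 ± 0.16 and -0.32 ± 0.16, none past the test with 17 mice (edgeR adjusted p = 0.341, 0.524 and 0.279). Rpsa, Rps27a and Rps19 were all among the genes that fell in FLX without Ctrl replicate 3 (edgeR, adjusted p under 0.05).

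**Figure D5:**
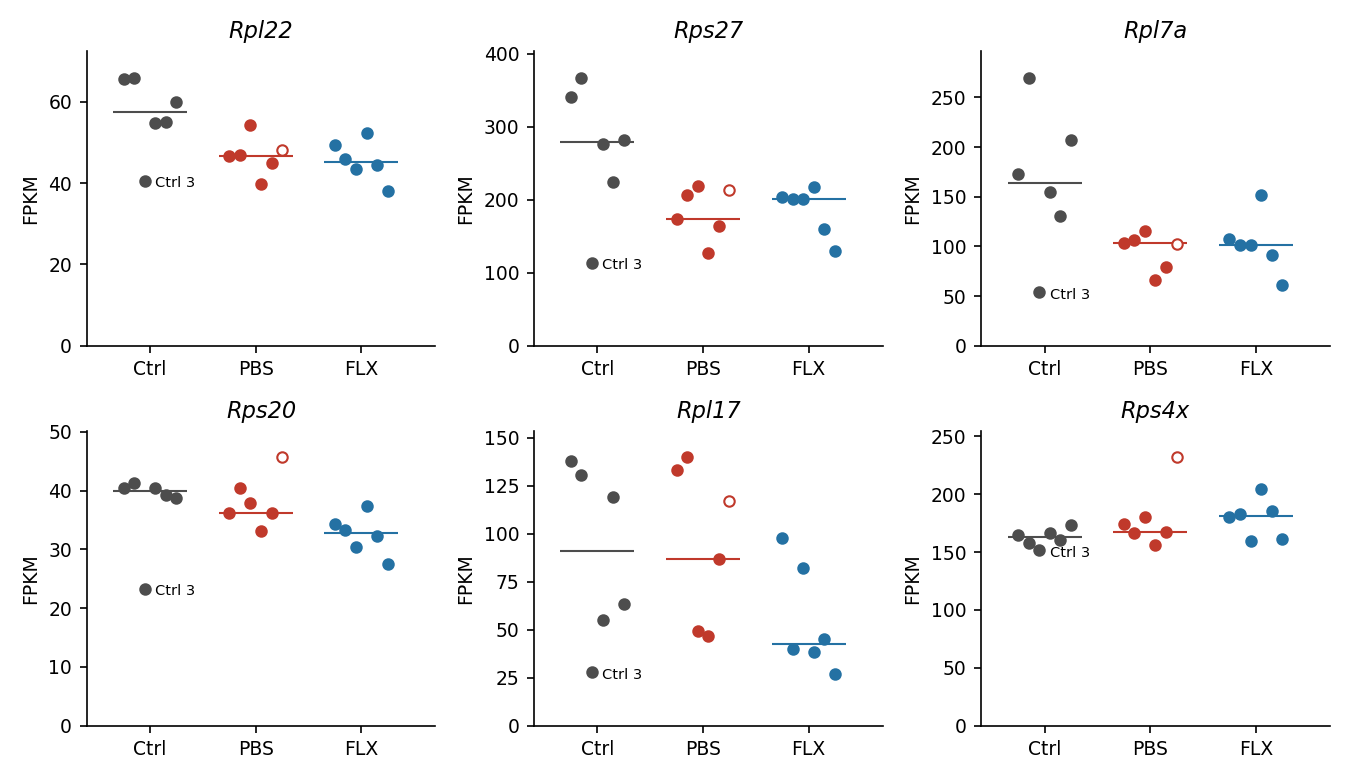
FPKM (y axis, from 0) of 6 ribosomal protein genes in each mouse, by group. Points are mice, horizontal lines medians of the mice compared, and the open point is PBS replicate 6. Rpl22, Rps27, Rpl7a and Rps20 have Ctrl replicate 3 far below the other Ctrl mice, Rpl17 is spread from 26.9 to 139.8 FPKM across all groups, and Rps4x stays between 152 and 205 in the mice compared.

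Tissue-restricted paralogs were at low levels, and the distance of the others from their partners depended on the length scale. On the deposited scale, Rpl3 averaged 134 FPKM over the 18 mice and Rpl3l 1.72, Rpl39 74.3 and Rpl39l 0.0245, and Rpl7 134 and Rpl7l1 20.4. Rpl22 was at 49.8 and Rpl22l1 at 18.6 (rescaled 70.7 and 68.9), Rps4x at 174 and the pseudogene Rps4l at 12.6. Rps27l, a p53-inducible paralog, was at 147 against 212 FPKM for Rps27, and rescaled to mRNA length these were 223 and 642. Rps27l measured 93.8 to 218 FPKM in the Ctrl mice (median 165), 144, 172, 165, 128 and 126 in PBS replicates 1 to 5, and 109.8 to 143 in the FLX mice (median 137). It leaned lower in FLX than in Ctrl (log2 change -0.43 ± 0.16, edgeR adjusted p = 0.131), as Rps27 did (-0.62 ± 0.22, adjusted p = 0.13). Rpl7l1 measured 16.03 to 20.9 FPKM in the Ctrl mice (median 20.2), 19.3, 20.6, 23.1, 16.8 and 18.8 in PBS replicates 1 to 5, and 20.01 to 24.1 in the FLX mice (median 21.8). Rpl7l1 gave 0.076 ± 0.089 in FLX versus Ctrl and Rpl7 -0.18 ± 0.097 (edgeR adjusted p = 0.678 and 0.316). Rpl10 averaged 201 FPKM. Values of the 5 pseudogenes, and of genes with near-identical processed copies, are uncertain, since reads may be shared between copies.

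Ribosomal proteins outside the name rule also had negative medians against Ctrl. The 6 genes in question (among them Fau, made as a fusion with a ubiquitin-like protein, Rack1, a scaffold on the 40S head, Rpl36al and the retrogenes Rps27rt and Rpl37rt) had no call with 17 mice and medians of -0.17, -0.12 and -0.28 for PBS versus Ctrl, FLX versus PBS and FLX versus Ctrl. Leaving out Ctrl replicate 3, 1 fell in PBS (Rack1, -0.33 ± 0.091, edgeR adjusted p = 0.0315) and 4 in FLX, among them Fau (-0.44 ± 0.097, adjusted p = 0.00622). The 78 nuclear genes for mitochondrial ribosomal proteins, which build a separate ribosome, had medians of -0.090, -0.10 and -0.17 in the same comparisons, with 1 call, Mrps18c in FLX versus Ctrl (-0.37 ± 0.095, edgeR adjusted p = 0.038), a call lost with all 6 PBS mice and with the length adjustment (adjusted p = 0.0502 and 0.213). Leaving out Ctrl replicate 3, 15 of them fell in PBS and 35 fell and 1 rose in FLX against Ctrl, where 3.90% and 7.76% of all genes fell. With the length adjustment as well, 8 fell and 2 rose in PBS and 20 fell and 1 rose in FLX, beside 3.67% and 5.24% of all genes falling. Of 231 genes named as ribosomal protein pseudogenes, 159 were tested, with no call and a median of -0.17 in FLX versus Ctrl with 17 mice, and 8 lower in PBS and 23 lower in FLX (median -0.28) without Ctrl replicate 3.

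Calls in a list of elongation factors and other TOP mRNAs also depended on Ctrl replicate 3. The 21 elongation factors and other TOP mRNAs had no call in any comparison with 17 mice and a median of -0.085 in FLX versus Ctrl. With that mouse left out, 1 fell in PBS and 7 fell in FLX against Ctrl (median -0.12), and with the length adjustment as well 1 and 2, beside the shares of all genes given above. Without the length adjustment, the gene that fell in PBS was Eif3h, a subunit of an initiation factor. Those of lowest p in FLX were Eif3k, Eif3f, Btf3, Naca and Eef1b2, of which Eef1b2 is an elongation factor. Eef1a1, the factor that delivers aminoacyl-tRNA and itself a TOP mRNA, was at 1473 ± 71.3 FPKM in Ctrl, 1336 ± 82.5 in PBS and 1476 ± 94.0 in FLX, and Eef2, the translocase, at 386 ± 19.4 FPKM in Ctrl, 377 ± 35.1 in PBS and 403 ± 21.5 in FLX, with log2 changes in FLX versus Ctrl of -0.085 and -0.025 (edgeR adjusted p = 0.549 and 0.896). Of 29 initiation factors in a separate list, Eif1a alone passed with 17 mice, rising in PBS (0.36 ± 0.097, edgeR adjusted p = 0.0391) and in FLX (0.41 ± 0.092, adjusted p = 0.02) against Ctrl. The PBS call was lost when any 1 of 7 mice was left out and the FLX call without Ctrl replicate 5. Without Ctrl replicate 3, 2 initiation factors rose in PBS and 4 rose and 3 fell in FLX, where 4.68% and 7.82% of all genes rose.

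Among genes that make and assemble ribosomes, more rose than fell against Ctrl. Of 57 genes for RNA polymerase I, rRNA processing and subunit assembly, 4 rose and 1 fell in PBS versus Ctrl, where 2.11% and 1.67% of all genes did. None passed in FLX versus PBS, where 0.711% of all genes did. In FLX versus Ctrl 9 rose and none fell (median 0.13), where 2.13% of all genes rose and 1.66% fell. With Ctrl replicate 3 left out, the list had 7 higher and 1 lower in PBS and 20 higher and 2 lower in FLX against Ctrl. Over all genes, 4.68% rose and 3.90% fell in PBS and 7.82% rose and 7.76% fell in FLX. With the length adjustment as well, the list had 7 higher and 1 lower in PBS and 10 higher and 1 lower in FLX. Over all genes, 4.14% rose and 3.67% fell in PBS and 4.69% rose and 5.24% fell in FLX. Nop2, an rRNA methyltransferase, averaged 5.88 ± 0.302 FPKM in Ctrl, 6.51 ± 0.818 in PBS and 9.43 ± 1.72 in FLX (log2 change 0.60 ± 0.11 in FLX versus Ctrl, edgeR adjusted p = 0.00636). Rrn3, which brings RNA polymerase I to the rRNA promoter, rose in PBS (0.47 ± 0.099, adjusted p = 0.0115) and in FLX (0.43 ± 0.095, adjusted p = 0.0175) against Ctrl, as did Utp4 of the small-subunit processome (0.48 ± 0.10 and 0.51 ± 0.098, adjusted p = 0.0121 and 0.00861). Mdn1, the 60S-assembly ATPase, was the one that fell in PBS (-0.57 ± 0.14, adjusted p = 0.0217), a call lost without PBS replicate 1 and in both limma fits. It was at 0.874 ± 0.181 FPKM in Ctrl, 0.582 ± 0.0685 in PBS and 0.904 ± 0.156 in FLX. Without Ctrl replicate 3, Mdn1 also rose in FLX versus PBS (0.54 ± 0.13, edgeR adjusted p = 0.0373). These counts came out at 7 higher and 1 lower in PBS and 9 higher in FLX with the length adjustment. Of the 10 chaperones and importers of ribosomal proteins, Heatr3 (0.30 ± 0.071, adjusted p = 0.0237) and Kpnb1 (0.35 ± 0.089, adjusted p = 0.0351) rose in FLX versus Ctrl, calls lost when any 1 of 2 and 9 mice, respectively, was left out. Myc, a transcription factor that drives these genes, did not pass the test (1.63 ± 0.667 FPKM in Ctrl, 2.83 ± 2.99 in PBS and 1.83 ± 0.475 in FLX, edgeR adjusted p = 0.478 in PBS versus Ctrl).

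Among 29 genes of mTORC1 and of TOP mRNA control, 2 rose in PBS versus Ctrl, 1 fell in FLX versus PBS and 1 rose in FLX versus Ctrl, and without Ctrl replicate 3 there were 3 higher and 0 lower, 0 higher and 1 lower, and 3 higher and 2 lower. With the length adjustment as well, 0 were higher and 0 lower in FLX versus Ctrl. Over all genes with 17 mice, 2.11% rose in PBS versus Ctrl, 0.390% fell in FLX versus PBS and 2.13% rose in FLX versus Ctrl. Without Ctrl replicate 3, 4.68% of all genes rose in PBS versus Ctrl and 0.717% fell in FLX versus PBS. In that setting 7.82% rose and 7.76% fell in FLX versus Ctrl. Ddit4, a stress-induced inhibitor of mTORC1, was at 10.6 ± 2.86 FPKM in Ctrl, 47.7 ± 20.4 in PBS and 25.3 ± 14.8 in FLX (log2 change 2.17 ± 0.35 in PBS, edgeR adjusted p = 0.00253). Eif4ebp3, a repressor of cap-dependent initiation, averaged 5.79 ± 1.38 FPKM in Ctrl, 11.8 ± 3.02 in PBS and 6.19 ± 1.39 in FLX, rising in PBS (1.02 ± 0.21, adjusted p = 0.00842) and falling in FLX against the same PBS mice (-1.01 ± 0.21, adjusted p = 0.0258). The second call was lost with all 6 PBS mice (edgeR adjusted p = 0.0823), when any 1 of 6 mice was left out and with a replicate block. Mlst8, a subunit of mTORC1, rose in FLX versus Ctrl (0.36 ± 0.096, adjusted p = 0.0404), a call lost with all 6 PBS mice (adjusted p = 0.0531), with the length adjustment (adjusted p = 0.088) and when any 1 of 10 mice was left out. Larp1, which binds the TOP tract, gave 0.27 ± 0.091 in FLX versus Ctrl (edgeR adjusted p = 0.103). It rose without Ctrl replicate 3 (0.36 ± 0.074, edgeR adjusted p = 0.00463), a call lost with the length adjustment as well. These are mRNA levels, and neither translation nor mTORC1 activity was measured.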

How the data were processed

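Poly(A) RNA of 18 right kidneys (6 per group) was sequenced as strand-marked (dUTP), paired-end libraries with UMI adapters. Per the methods, reads were trimmed with fastp, mapped with HISAT-3N to GRCm38 and assembled and quantified with StringTie. The submitters' processing notes name cutadapt 1.9, HISAT2 2.0.4, UMI-tools, StringTie 1.3.4d, DESeq2 and edgeR. The deposited table gives, per gene and mouse, an estimated count and an FPKM value by the authors, and the FPKM were used as deposited. Counts were rounded to whole numbers before testing. No per-sample column was left unused.

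Genes were filtered (filterByExpr), scaled by TMM and fitted with edgeR 4.0.16 (quasi-likelihood, robust) in 1 model of the 3 groups over 17 mice, with Benjamini-Hochberg adjustment over 20251 genes and calls at adjusted p under 0.05. The exact two-sided permutation test compared means of log2(FPKM + 0.1) for single genes and can give no p below 0.00216. Alternatives were DESeq2 1.42.0, limma 3.58.1 on log2(FPKM + 0.1) and log2(FPKM + 1), other scalings, no filter, all 18 mice, each mouse left out, FLX replicates 1 and 2 only (the deeper FLX libraries) and a replicate block. The length offset (a loess of each mouse's log2 deviations on log2 transcript length, span 0.5, over genes that are not ribosomal proteins) and the settings that leave out Ctrl replicate 3 together with another change were added after seeing the data. The scripts were tested on simulated data.

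The members and gene lists were chosen with earlier results of these data known. Genes named are those called, the 5 lowest p-values per comparison, the 5 highest and 5 lowest levels, the 3 largest spreads, paralog pairs and genes with known roles, except that values of some of these are not reported here. From each other list at most 5 called genes were eligible. The lists were mitochondrial ribosomal proteins, ribosomal protein pseudogenes, other cytosolic ribosomal proteins, elongation factors and TOP mRNAs, initiation factors, mTORC1 and TOP control, rRNA synthesis and assembly, ribosomal protein chaperones, and markers of kidney epithelium, lymphocytes, myeloid, fat and erythroid cells. Replicates are separate mice. Errors of FPKM values and shares are SDs between mice, and errors of log2 changes are standard errors from the edgeR fit. Figures used matplotlib 3.10.9.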

Additional observations from a re-analysis of the deposited data

Results flagged for a closer look

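A mouse far from the rest of its group was sought with Dixon's ratio, the gap to the nearest mouse over the group's range, in the summed level and in 35 named genes over the 3 groups of 6, that is 108 checks, of which 22 passed the 95% critical value of 0.625. Chance passes about 1 in 20 groups, and these checks share the same mice, so they are not independent. Ctrl replicate 3 accounted for 17. Its summed ribosomal protein level of 8712 FPKM lay below the 14049.8 to 16837 FPKM of the other Ctrl mice. FLX replicate 6 had a sum of 9989.8 FPKM against 12455 to 13297 in the other FLX mice.

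Single genes in which Ctrl replicate 3 lay below the other Ctrl mice were Rps23 at 172 FPKM (others 253 to 300.1), Rps20 at 23.2 FPKM (others 38.8 to 41.2), Rpl29 at 77.9 FPKM (others 98.5 to 110.1) and Rpl37 at 54.9 FPKM (others 79.1 to 88.4). The same mouse was low for Rplp1 at 416 FPKM (others 844 to 991), Rps15 at 385 FPKM (others 652 to 811), Rpl41 at 241 FPKM (others 574 to 726) and Rplp0 at 275 FPKM (others 415 to 463). It was also low for Rpl10 at 167 FPKM (others 204 to 224), Rpl39 at 40.01 FPKM (others 76.9 to 98.4), Rpl7 at 102 FPKM (others 142 to 148) and Rpl7l1 at 16.03 FPKM (others 19.5 to 20.9). The last of these were Rps6 at 183 FPKM (others 245 to 267), Rplp2 at 44.4 FPKM (others 69.8 to 80.8), Rpsa at 113 FPKM (others 179 to 212) and Rps19 at 29.7 FPKM (others 55.8 to 70.3). FLX replicate 6 lay below the other FLX mice for Rpl11 at 97.2 FPKM (others 132 to 148) and Rpl13a at 164 FPKM (others 221 to 241). PBS replicate 6 lay above the other PBS mice for Rps4x at 232 FPKM (others 156 to 181) and Rpl6l at 36.6 FPKM (others 27.8 to 29.6). The values of short genes that moved with Ctrl replicate 3 and FLX replicate 6 are given with the comparisons, and their part in these results was not tested.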

How the results depend on the processing

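The count of genes called was the value that moved. For PBS versus Ctrl it was 0 with all mice and 1 with the length offset, 0 to 22 when 1 mouse was left out (22 without Ctrl replicate 3), 17 without Ctrl replicate 3 with all 6 PBS mice, 7 without it with the length offset and 35 without it and FLX replicate 6. For FLX versus Ctrl it was 1, then 0 with all 18 mice, RLE scaling, library totals, no filter, either limma fit or FLX replicates 1 and 2 only, 8 with DESeq2, 0 to 68 with 1 mouse left out (68 without Ctrl replicate 3, 0 without any of 15 other mice, 1 without PBS replicate 5), 61 without Ctrl replicate 3 with all 6 PBS mice, 13 without it with the length offset and 61 without it and FLX replicate 6. FLX versus PBS stayed at 0 under every alternative run. Leaving out Ctrl replicate 3 removes the mouse with the lowest values, which lowers the spread within Ctrl and raises its mean. Why the length offset moved the counts was not tested.

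The medians were negative in all alternatives. Over these they ran from -0.24 to -0.036 (PBS versus Ctrl), -0.16 to -0.0079 (FLX versus PBS) and -0.37 to -0.066 (FLX versus Ctrl). For FLX versus PBS the median was -0.0079 with the length offset (all genes -0.0057) and -0.025 with FLX replicates 1 and 2 only (all genes -0.021). With 1 mouse left out they ran from -0.24 to -0.089 (PBS versus Ctrl), -0.16 to -0.063 (FLX versus PBS) and -0.36 to -0.21 (FLX versus Ctrl), and the ratios of mean summed FPKM from 0.821 to 0.923, 0.937 to 1.01 (above 1 without PBS replicate 2, PBS replicate 3 or FLX replicate 6) and 0.802 to 0.897. Rpl22 in FLX versus Ctrl kept its sign, with an adjusted p (edgeR, DESeq2 or limma) from 0.00174 to 0.636.

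Replicate numbers are shared between groups but the labels do not say that they pair mice. Deviations of same-numbered mice correlated at -0.20 to 0.23 over 16 pairs, 2 of them over 0.1, which gives no evidence that the numbers pair mice. With the replicate block, 0 genes were called in each comparison, with medians of -0.14, -0.096 and -0.25. With 5 or 6 mice per group, the spread between mice sets what these comparisons can show.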
